A study of Mus musculus with 30 samples.

Results

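The 9 genes Spry1, Spry2, Spry4, Spred1, Spred2, Dusp4, Dusp6, Etv4 and Etv5, known as feedback targets of the kinase ERK, were followed through a time course of cultured mouse leg muscle cells. They were taken from 18193 genes named on the A and B chips of an Affymetrix set, by collecting every probe set (a group of short probes that read 1 transcript) whose annotation names 1 of these genes and no other. This gave 27 probe sets, 14 on A and 13 on B. The cultures were sampled at 0, 4, 12, 24 and 48 h, with 3 replicates per hour and 1 array of each chip per replicate, 30 arrays in all. All groups share the label of mouse leg muscle, and total RNA was measured. The labels give no genotype, strain, age, treatment or medium, and they do not say what happens at 0 h, so the comparisons address only how transcript levels differed between hours. Whether replicates are separate cultures or animals is not labelled, so the p-values measure only how far these arrays spread, and part of that spread may be technical.

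The ERK kinases are the last step of a cascade in which growth factor receptors, through Ras and Raf, pass a signal to the nucleus. ERK activity switches on the transcription of proteins that damp the same cascade, so that the transcripts of these feedback genes are often read as a gauge of recent ERK signalling downstream of fibroblast growth factors. In myoblasts, growth factors acting through this cascade are known for holding back differentiation, while roles later in myotube formation have also been described. Sprouty proteins (Spry1, Spry2 and Spry4) and the related Spred proteins (Spred1 and Spred2) inhibit signalling at the level of Ras and Raf. The phosphatases Dusp6, which stays in the cytoplasm, and Dusp4, which is nuclear, remove phosphate from ERK itself. Etv4 and Etv5 are ETS transcription factors that act as outputs of the pathway.

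The cultures carried the transcripts of differentiating muscle. Myogenin (Myog) had intensities of 6429 to 12722 and skeletal actin (Acta1) of 8196.5 to 16998.5 over the 15 A arrays, and all 8 muscle markers were bright enough to be tested. The fibroblast markers were dim, with none of 6 bright enough and a summed intensity of 250.3 to 416.2 on any A array. Of the endothelial markers 2 of 4 were bright enough (Kdr and Tek), as were 2 of 4 macrophage markers (Csf1r and Adgre1). Among the Schwann markers, 1 of the 2 on A (Sox10) was bright enough, and neither of the 2 adipocyte markers on A was. The 2%-trimmed mean was held at 500.1 to 500.2 on all arrays. On whole arrays, replicate 3 stood apart. The summed intensity of 6 cell division genes was 10391 to 14540 in replicate 3, against 4166 to 9344 in replicates 1 and 2. The summed intensity of the muscle markers at 48 h was 43164 in replicate 3, against 69826 and 63838 in replicates 1 and 2. The 4 myoblast markers, all tested, summed to 3736 to 4883 in replicate 3, against 5060.2 to 5936 in replicates 1 and 2. The 4 pericyte markers, of which Rgs5 and Cspg4 were tested, summed to 449 to 618 in replicate 3, against 878 to 2829 in replicates 1 and 2. This gap came from Rgs5, which averaged 69.4 in replicate 3 and 1603 in replicates 1 and 2. Cspg4 went the other way, at 372 in replicate 3 and 205 in replicates 1 and 2. The untested Kcnj8 and Abcc9 averaged 19.5 and 49.3 in replicate 3, against 14.5 and 54.2. Over all tested probe sets, 12.0% were higher and 12.4% lower in replicate 3 than in replicates 1 and 2 (limma with hour as a further factor, adjusted p under 0.05). Results are therefore given over all arrays and again with replicate 3 as a batch term, and the part of dividing or other cells in them was not tested. In bulk RNA, more cells of a type and more RNA per cell cannot be told apart.

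Of the 27 probe sets, 19 lay in the upper 60% of their chip by mean log2 value and were tested, 9 on A and 10 on B. They read 8 genes, since both probe sets of Etv4 were below that limit. Differences are given on the scale log2(intensity + pseudocount), with a pseudocount of 29 on A and 54 on B, which understates the change of dim probe sets. A probe set was called where limma's two-sided p, adjusted by Benjamini-Hochberg over all tested probe sets of its chip, was under 0.05. For 1 probe set, an exact permutation test of 3 against 3 arrays has a smallest two-sided p of 0.1. The intensities of different probe sets are not comparable, so each was set only against itself.

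Spry1, 1 of 3 probe sets of Etv5 and 1 of 3 tested probe sets of Spred2 were called higher at 48 h than at 0 h over all arrays. Dusp6 was not called there over all arrays but was with replicate 3 as a batch term, as were the other 2 probe sets of Etv5. In both fits Spry2, Spry4, Dusp4 and all tested probe sets of Spred1 passed no test of hour. The F test over all hours called 2 of 19 member probe sets, against 1.43% of all 27083 tested probe sets (limma). Once replicate 3 was a batch term it called 6 of 19, against 10.3% of all. At 48 h against 0 h, 3 of 19 were called, all of them higher, against 1.64% of all in either direction and 1.04% higher. The fit with the batch term called 6 of 19 higher at 48 h, against 3.86% of all. At 24 h, 1 of 19 was called, against 1.76% of all in either direction and 1.10% higher, and with the batch term 2 of 19 were called higher, against 4.16%. Over all arrays no member was called at 4 h (0% of all probe sets) or at 12 h (0.00369% of all). An unadjusted limma p under 0.05 was reached at 4 h by 1 member, which was lower, against 2.54% of all lower and 2.64% higher. At 12 h it was reached by 2 members, both higher, against 3.42% of all higher and 3.04% lower. Between neighbouring hours none of the 19 was called over all arrays. The same tests called 0% of all probe sets at 12 h against 4 h and at 24 h against 12 h, and 0.0702% at 48 h against 24 h. At an unadjusted p under 0.05, 3 members were higher at 12 h against 4 h (3.71% of all higher, 2.51% lower). At 24 h against 12 h 1 member was lower (3.19% of all lower, 2.91% higher). At 48 h against 24 h 4 members were higher (5.93% of all higher, 4.35% lower).

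The median log2 difference of the 19 members at 48 h against 0 h was 0.43, against 0.00 over all tested probe sets. Of the 19, 15 were above 0, against 50.4% of all. At 4 h the members' median was -0.05, against -0.02 over all, and 5 of 19 were above 0, against 47.2% of all. Several of the 19 read the same gene, 7 of them Spred1, and all comparisons with 0 h share the 0 h arrays, so these counts are descriptions. Marker sums moved over the same hours. Those of the cell division genes were 8294 and 9344 at 0 h, 4166 and 4258 at 24 h and 6823 and 7345 at 48 h in replicates 1 and 2, and 14068, 10606 and 10391 at these hours in replicate 3. Those of the pericyte markers were 2692 and 2733 at 0 h, 947 and 919.9 at 24 h and 930.2 and 878 at 48 h in replicates 1 and 2, and 618, 514 and 483 in replicate 3. Rgs5 carried this fall, with a mean of 1696 at 0 h and 391 at 48 h over the 3 replicates. Cspg4 averaged 281 and 269 at these hours. The dim Abcc9 and Kcnj8 were higher at 48 h (80.4 and 23.5) than at 0 h (23.9 and 13.5). The muscle marker sums were 49347 and 54186 at 0 h, 69196 and 73024 at 24 h and 69826 and 63838 at 48 h in replicates 1 and 2, and 48612, 63861 and 43164 in replicate 3. The muscle markers did not move together. Over the 3 replicates, Acta1 averaged 10089 at 0 h and 14271 at 48 h, Myh3 4075 and 8927, and Tnnt3 2985 and 6775. Ckm averaged 923 and 1267 at these hours, and Des 5042 and 5545. Myod1 was lower at 48 h (4720) than at 0 h (7725), as were Myog (8455 and 10320) and Chrna1 (8982 and 9556). The part of these shifts in the members' differences was not tested.

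**Figure D1:**
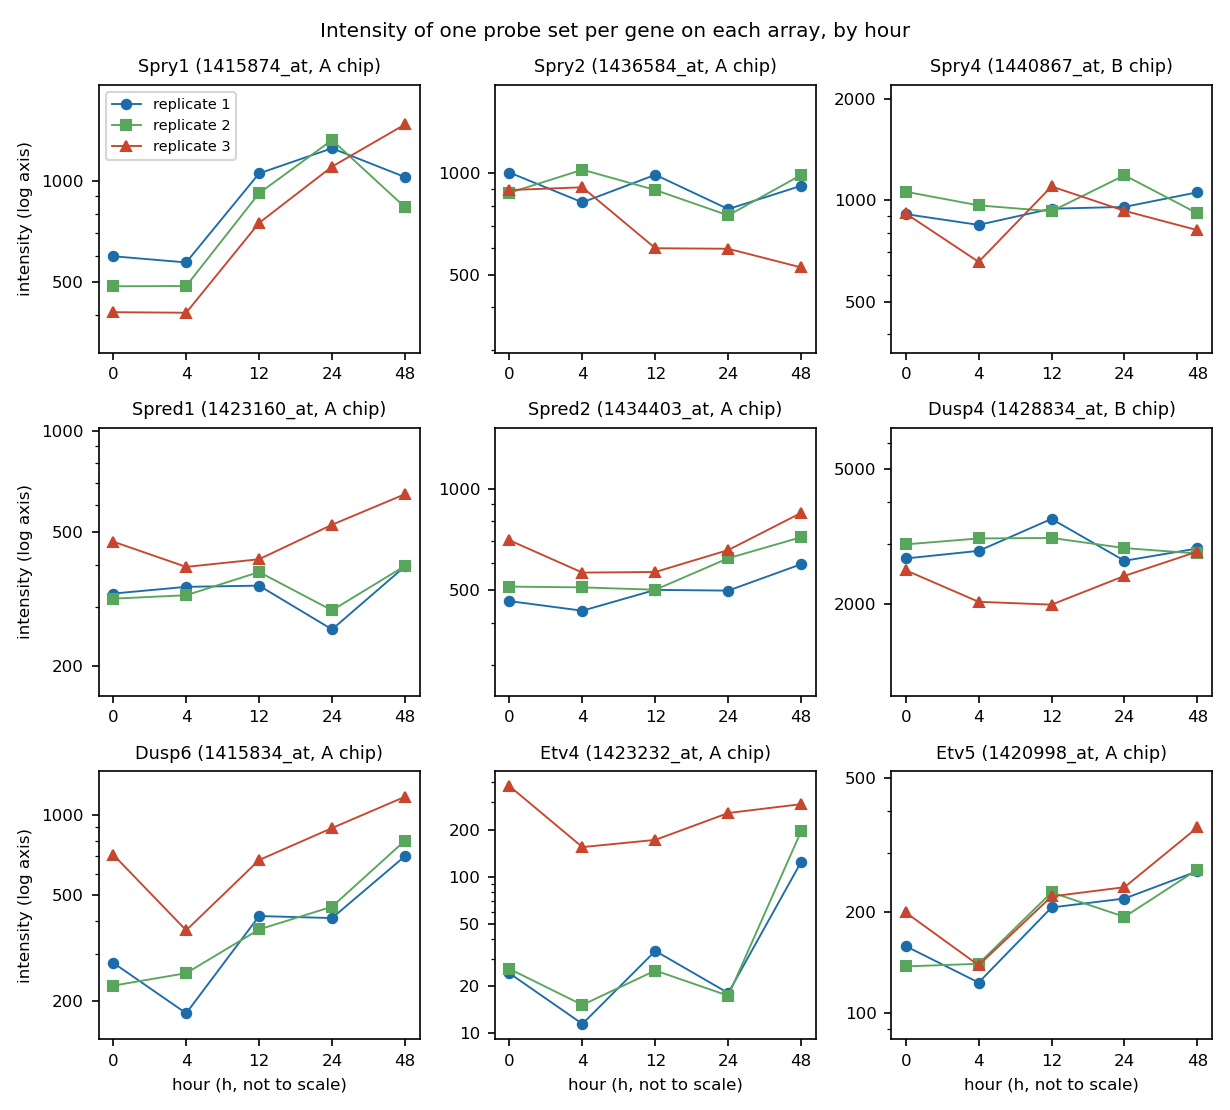
Intensity (log axis) of 1 probe set for each of the 9 genes against hour (0, 4, 12, 24 and 48 h, evenly spaced), with 1 line and symbol per replicate. Spry1 is higher at 12 h than at 4 h in all 3 replicates, Dusp6 runs higher in replicate 3 than in replicates 1 and 2 at every hour and is lowest at 4 h in replicates 1 and 3, and Etv4 is dim in replicates 1 and 2 until 48 h but not in replicate 3.

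The promoters of Spry1, Dusp6 and Etv5 are shown because these were the 3 genes for which every tested probe set was called higher at 48 h with the batch term. They are taken from RefSeq start sites in the mouse build GRCm38.p6, from 250 bases before the start to 50 after it. Capitals mark 2 motifs found on either strand. The first is CGGAA (read as TTCCG on the other strand), 1 form of the GGAA core that ETS factors such as Etv4 and Etv5 recognise. The second is the E-box CANNTG, which myogenic factors recognise. Forms of the ETS core without CGGAA were not searched for. Etv5 has 2 start sites in the table, numbered here as there. Promoters of 6 of the 9 genes were searched, after entries on 1 chromosome had been left out. Those of Spry4, Dusp4 and Etv4 were not among them. Whether entries of these genes were left out with that chromosome or were missing is not given here.
Spry1 (chr3:37639697-37639996, plus strand): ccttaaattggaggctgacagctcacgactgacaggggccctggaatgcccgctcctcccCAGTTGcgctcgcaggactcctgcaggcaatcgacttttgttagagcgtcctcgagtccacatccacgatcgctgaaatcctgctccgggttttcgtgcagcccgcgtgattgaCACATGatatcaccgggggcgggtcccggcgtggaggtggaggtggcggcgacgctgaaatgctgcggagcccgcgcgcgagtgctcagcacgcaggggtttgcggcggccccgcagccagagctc
Dusp6 (chr10:99262981-99263280, plus strand): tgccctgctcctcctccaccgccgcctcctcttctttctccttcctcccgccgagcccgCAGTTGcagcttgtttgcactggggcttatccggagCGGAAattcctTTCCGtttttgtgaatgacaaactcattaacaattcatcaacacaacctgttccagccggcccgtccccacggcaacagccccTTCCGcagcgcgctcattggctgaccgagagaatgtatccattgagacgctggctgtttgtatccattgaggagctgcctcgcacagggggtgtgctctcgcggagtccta
Etv5 start 1 (chr16:22439521-22439820, minus strand): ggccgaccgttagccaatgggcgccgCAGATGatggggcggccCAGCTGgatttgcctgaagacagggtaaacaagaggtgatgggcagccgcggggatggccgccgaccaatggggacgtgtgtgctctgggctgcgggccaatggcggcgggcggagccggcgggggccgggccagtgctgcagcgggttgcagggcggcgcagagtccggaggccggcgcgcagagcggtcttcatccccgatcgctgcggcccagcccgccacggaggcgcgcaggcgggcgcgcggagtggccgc
Etv5 start 2 (chr16:22438319-22438618, minus strand): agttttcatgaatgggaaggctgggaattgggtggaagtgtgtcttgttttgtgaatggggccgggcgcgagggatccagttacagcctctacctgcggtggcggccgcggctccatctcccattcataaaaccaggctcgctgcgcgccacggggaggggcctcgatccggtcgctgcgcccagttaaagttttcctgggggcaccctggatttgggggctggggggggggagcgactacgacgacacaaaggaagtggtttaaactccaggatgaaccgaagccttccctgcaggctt
In these windows CGGAA was found 3 times before Dusp6 and 0 times before Spry1 and both starts of Etv5. The windows of Spry2, Spred1 and Spred2 held it 1, 2 and 2 times in that order. Of 32851 promoters of this length, 29.9% held it. On 1 strand or the other, GGAA after other bases is present in the printed windows of Spry1, Dusp6 and the second start of Etv5, and was not counted. The E-box was found 2 times before Spry1, 1 time before Dusp6 and 2 times before the first start of Etv5, 1 of them as CAGCTG, and 72.3% of all promoters held an E-box and 16.3% CAGCTG, which is a special case of it. None of the 7 windows held the longer ETS sequence CCGGAAG, which contains CGGAA (8.86% of all), the AP-1 site TGANTCA (7.81%), the cAMP response element TGACGTCA (1.79%) or a CArG box (1.63%). A match says only that the letters are present.

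Spry1, an inhibitor that acts on receptor tyrosine kinase signalling and is also known for keeping adult muscle stem cells quiescent, was read by 1 probe set (1415874_at, A chip). Its intensity in replicates 1, 2 and 3 was 598, 487 and 408 at 0 h, 573, 488 and 407 at 4 h, 1054, 920.4 and 751 at 12 h, 1251, 1324 and 1104 at 24 h, and 1028, 836 and 1473 at 48 h. All arrays at 12, 24 and 48 h lay above all arrays at 0 and 4 h, and the 0 and 4 h values differed by little within each replicate. At 24 h the mean was 1226 ± 112, against 498 ± 95.4 at 0 h (SD, n = 3 each), a log2 difference of 1.26 ± 0.21 (SE). This was called with an adjusted p of 0.00678 by limma over all arrays and 0.000558 with the batch term, and no array left out ended it. At 48 h the difference was 1.09 ± 0.21 (adjusted p = 0.0170, 0.00164 with the batch term), higher in 3 of 3 replicates. That call was lost without replicate 2 at 0 h (adjusted p = 0.0917) or replicate 1 at 48 h (0.0684), and when only the arrays of both hours were fitted (0.108).

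The 48 h difference of Spry1 was 1.78 within replicate 3, against 0.75 in replicates 1 and 2. Replicates 1 and 2 were highest at 24 h, while replicate 3 was highest at 48 h, and this contrast between replicates was not tested. At 12 h the difference from 0 h was already 0.83 ± 0.21, with an adjusted p of 0.411 by limma over all arrays and 0.0466 with the batch term, against 0.332% of all probe sets called higher there with that term. Of the members, 2 of 19 had no overlap between 12 h and 0 h and were higher, Spry1 and Etv5 1420998_at, against 6.75% of all tested probe sets. Over all arrays Spry1 had the smallest F test p of the members (limma adjusted p = 0.00729, against 0.184 for Dusp6), whereas with the batch term that of Dusp6 was smaller (0.000103, against 0.000366 for Spry1).

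Spry2, a Sprouty protein that is likewise induced by growth factors, passed no test of hour. Its tested probe set (1436584_at, A chip) read 1006, 876 and 892 at 0 h, 820.3, 1025 and 909 at 4 h, 990.4, 892 and 599.6 at 12 h, 784, 750.4 and 597 at 24 h, and 919, 989 and 526 at 48 h in replicates 1, 2 and 3. Replicate 3 was the lowest from 12 h on, and its 48 h array was the lowest of all 15. At 24 h all 3 arrays were below all arrays at 0 h, with a log2 difference of -0.37 ± 0.23 (limma adjusted p = 0.457, 0.148 with the batch term). Such a gap without overlap on the low side was seen in 2 of 19 members at 24 h, the other being Spred2 1436892_at, against 9.84% of all tested probe sets. The 48 h difference of Spry2 was -0.23 ± 0.23 (limma adjusted p = 0.709), made of -0.73 within replicate 3 and 0.02 in replicates 1 and 2. The second probe set (1421656_at) was dim, at 23 to 129, and was not tested.

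Spry4, another inducible Sprouty, also passed no test of hour. Its brighter probe set (1440867_at, B chip) read 909, 1059 and 913 at 0 h, 844, 965 and 656 at 4 h, 943, 927 and 1098 at 12 h, 955, 1185 and 929 at 24 h, and 1055, 914 and 814 at 48 h. The hours overlapped throughout, and the 48 h difference was -0.05 ± 0.17 (limma adjusted p = 0.939). The other tested probe set (1445669_at) averaged 224 ± 94.2 at 4 h and 362 ± 96.3 at 0 h (SD, n = 3 each), with a difference of -0.61 ± 0.29 that was not called (limma adjusted p = 0.906). Both A chip probe sets of Spry4 were dim, at 14.4 to 119, and were not tested.

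Spred1, a membrane-bound inhibitor that brings neurofibromin to Ras, was read by 8 probe sets, 7 of them tested. No hour was called for any of them, over all arrays or with the batch term. The probe set that represented it on A (1423160_at) read 328, 317 and 468 at 0 h, 344, 325 and 394 at 4 h, 347, 380.4 and 415 at 12 h, 257, 293 and 526 at 24 h, and 395, 397 and 648 at 48 h. Replicate 3 was the highest at every hour, and within each replicate the 48 h array was above the 0 h array. Over the 7 tested probe sets the 48 h difference ran between -0.09 (1443652_x_at) and 0.53 (1452911_at), and 6 of the 7 were above 0, with limma adjusted p-values of 0.321 to 0.975. Only 1423161_s_at had no overlap between 48 h and 0 h, at 274, 302 and 390.5 at 48 h, against 255, 158 and 252 at 0 h. The probe set 1443652_x_at, whose suffix marks probes shared with other sequences, swung between 77.5 and 1038 without order in hour or replicate. The 8th probe set (1445228_at) stayed at 5.8 to 84 and was not tested.

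Spred2, the second Spred inhibitor of Ras and Raf, rose late by 1 of its 5 probe sets. That probe set (1441415_at, B chip) read 499, 553 and 422 at 0 h, 621, 546 and 372 at 4 h, 445, 680 and 429.5 at 12 h, 562, 637 and 303 at 24 h, and 1257, 1418 and 1024 at 48 h. Every 48 h array lay above all 12 arrays of the earlier hours, among which no hour stood out. At 48 h it averaged 1233 ± 198, against 491 ± 65.7 at 0 h (SD, n = 3 each), a log2 difference of 1.23 ± 0.26 (limma adjusted p = 0.0345, 0.00141 with the batch term). Within replicate 3 the difference was 1.18, and in replicates 1 and 2 it was 1.26. The step at 48 h against 24 h was 1.26 ± 0.26, with an adjusted p of 0.0737 by limma over all arrays and 0.00323 with the batch term. With the batch term this was the 1 member of 19 called higher in that step, against 1.26% of all.

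The 48 h call of Spred2 1441415_at was close to the threshold over all arrays. It was lost when any 1 of 5 arrays was left out (replicates 1, 2 and 3 at 0 h and replicates 1 and 2 at 48 h), with limma adjusted p-values of 0.0865 to 0.18, while the difference stayed between 1.13 and 1.31. It was also lost with median centring, without the brightness limit, without the eBayes trend and with only the arrays of both hours (adjusted p-values of 0.0507 to 0.0537). The other tested probe sets of Spred2 moved less. The A chip probe set 1434403_at read 596, 717 and 847 at 48 h, against 463, 512 and 702 at 0 h, higher in 3 of 3 replicates with overlap between the hours, and its difference was 0.36 ± 0.18 (limma adjusted p = 0.383, 0.099 with the batch term). The B chip probe set 1436892_at read 1239.6, 961 and 1477 at 48 h, against 862, 814 and 981 at 0 h, a difference of 0.43 ± 0.22 (limma adjusted p = 0.413). The remaining 2 probe sets were dim, at 17.5 to 173, and were not tested. Which stretch of the Spred2 transcript each probe set reads is not given in the sources used here, and the difference between probe sets was not tested.

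**Figure D2:**
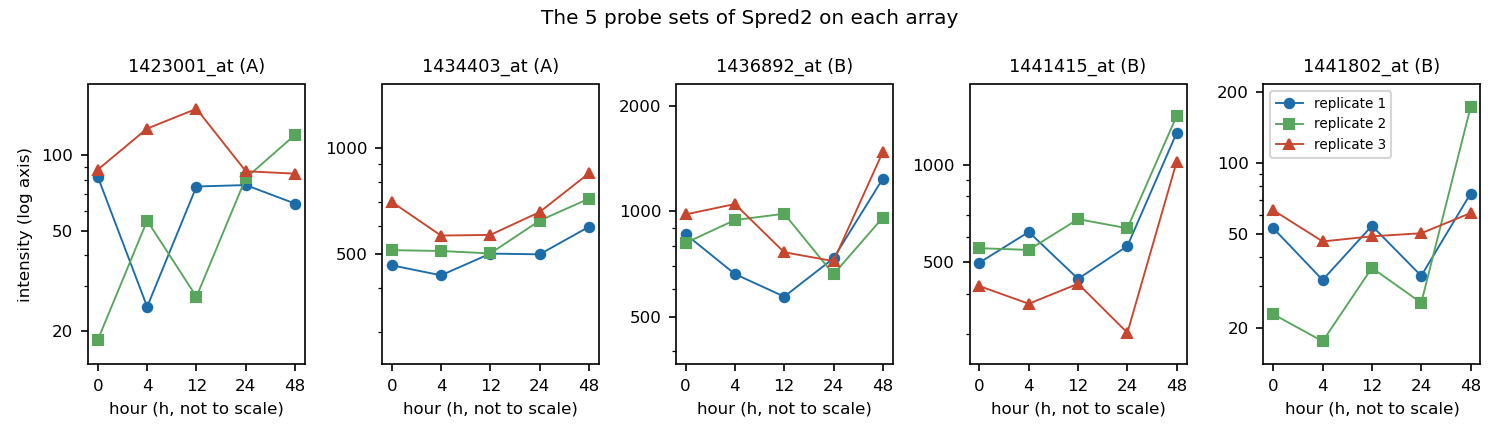
Intensity (log axis, a separate scale in each panel) of the 5 probe sets of Spred2 against hour, with 1 line and symbol per replicate. In 1441415_at the 3 arrays at 48 h (1024 to 1418) lie above all earlier arrays, while the other probe sets show smaller or irregular differences.

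Dusp4, the nuclear phosphatase, passed no test of hour. Its only probe set (1428834_at, B chip) read 2721, 2996 and 2511 at 0 h, 2866, 3119.7 and 2024 at 4 h, 3565, 3130.5 and 1984 at 12 h, 2678, 2921 and 2415 at 24 h, and 2913, 2815 and 2852 at 48 h. The hours overlapped, and replicate 3 was the lowest at every hour but 48 h. The 48 h difference was 0.06 ± 0.20 (limma adjusted p = 0.936), and the F test over all hours had an adjusted p of 0.988.

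Dusp6, the cytoplasmic phosphatase specific for ERK, was highest at 48 h in all 3 replicates and also differed between replicates. Its only probe set (1415834_at, A chip) read 278, 228 and 708 at 0 h, 179.9, 254 and 368 at 4 h, 417, 371 and 677 at 12 h, 409.7, 452 and 892 at 24 h, and 699.6, 800.2 and 1169 at 48 h. Replicate 3 was the highest at every hour, its 0 h array (708) lay above the 48 h array of replicate 1 (699.6). The 48 h mean was 889.7 ± 247, against 405 ± 264 at 0 h (SD, n = 3 each), a log2 difference of 1.21 ± 0.39. Over all arrays this was not called (limma adjusted p = 0.146). With replicate 3 as a batch term the same difference had an SE of 0.17 and an adjusted p of 0.000286.

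Without replicate 3 at 0 h the 48 h difference of Dusp6 was 1.67 and was called over the remaining arrays (limma adjusted p = 0.027). Within replicate 3 it was 0.70, and in replicates 1 and 2 it was 1.47, a contrast that was not tested. At 24 h the difference from 0 h was 0.58 ± 0.39 (limma adjusted p = 0.517, 0.0323 with the batch term). At 4 h it was -0.44 ± 0.39 and was not called (adjusted p = 0.999), with replicates 1 and 3 lower and replicate 2 higher than at 0 h.

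Etv5, an ETS factor of the PEA3 family, was read by 3 probe sets, which all were tested and all had positive differences at 48 h, 1 called over all arrays and all 3 with the batch term. The first (1420998_at, A chip) read 158, 138 and 199 at 0 h, 124, 140.4 and 139 at 4 h, 206, 229 and 222 at 12 h, 219, 194 and 237 at 24 h, and 264, 267 and 356 at 48 h. Its 12 h and 48 h arrays did not overlap those at 0 h, the 24 h arrays did, and the 48 h arrays lay above all others. At 48 h it averaged 296 ± 52.3, against 165 ± 31.3 at 0 h (SD, n = 3 each), a log2 difference of 0.74 ± 0.16 that was called over all arrays (limma adjusted p = 0.0325) and with the batch term (0.00406). The difference was 0.75 within replicate 3 and 0.74 in replicates 1 and 2. Its F test over all hours was also called (limma adjusted p = 0.0279).

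Over all arrays the 48 h call of Etv5 1420998_at was lost without replicate 1 or 2 at 0 h, without replicate 1 at 12 or 24 h, or without any 1 of the 3 arrays at 48 h, with limma adjusted p-values of 0.05 to 0.176 and differences of 0.61 to 0.81. Without the brightness limit its adjusted p was 0.0602, and with only the arrays of both hours it was 0.185. The second probe set (1450082_s_at, A chip) read 220.3, 257 and 345 at 48 h, against 139, 153 and 204 at 0 h, with no overlap, and its difference was 0.64 ± 0.29 (limma adjusted p = 0.315, 0.0447 with the batch term). On the B chip, 1428142_at read 1691, 1714 and 2659 at 48 h, against 1205, 964 and 2036 at 0 h. That difference was 0.55 ± 0.30 (limma adjusted p = 0.458, 0.0265 with the batch term), higher in 3 of 3 replicates with overlap between the hours, since replicate 3 at 0 h lay above replicates 1 and 2 at 48 h. At 4 h the 3 probe sets had differences from 0 h of -0.24, -0.63 and -0.52 in that order, none of them called (limma adjusted p-values of 0.919 to 0.999).

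Etv4, the second PEA3 factor, was too dim for the tested set, and its array values split by replicate. The A chip probe set (1423232_at) read 24.2, 25.8 and 379 at 0 h, 11.5, 15.2 and 155 at 4 h, 33.6, 25.2 and 172 at 12 h, 18.1, 17.4 and 255 at 24 h, and 124.5, 195.5 and 291 at 48 h. In replicates 1 and 2 it lay near or below the pseudocount of 29 until 24 h and far above it only at 48 h. In replicate 3 it was between 155 and 379 at every hour and highest at 0 h. When all probe sets of the chip were fitted, the difference between replicate 3 and replicates 1 and 2 was 2.04 ± 0.23 (limma adjusted p = 1.64e-05). In the same fit the 48 h difference from 0 h was 1.07 ± 0.34 with the batch term (adjusted p = 0.0945) and the F test over hours had an adjusted p of 0.0386.

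For Etv4 the 48 h difference was -0.35 within replicate 3, against 1.78 in replicates 1 and 2. Fitted on replicates 1 and 2 alone, over all probe sets, it was 1.78 ± 0.24 (limma adjusted p = 0.00153). Both of these fits without the brightness limit were chosen after the values were seen, and the contrast between replicates was not tested. The B chip probe set (1443381_at) read 232, 491 and 47.6 at 48 h, against 145, 34.6 and 35 at 0 h, with replicate 3 the dimmest at 48 h, so it did not share the replicate 3 pattern of the A chip probe set. Its 48 h difference was 1.11 ± 0.59 over all probe sets and was not called (limma adjusted p = 0.549).

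**Figure D3:**
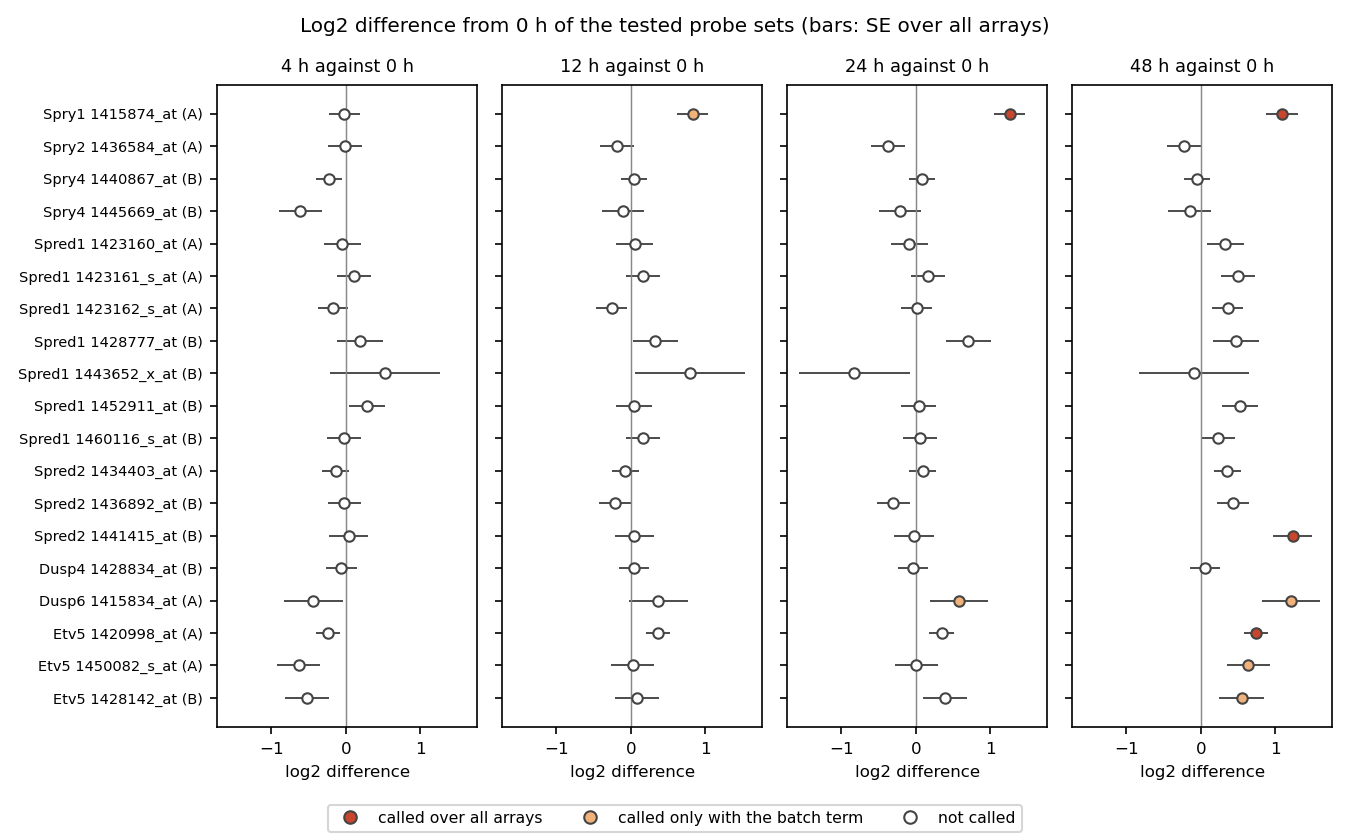
Log2 difference from 0 h (horizontal axis) with its SE over all arrays (bars), for the 19 tested member probe sets in rows and 4, 12, 24 and 48 h in panels. Red points were called by limma over all arrays, orange points by the fit with replicate 3 as a batch term but not by that one, and open points by neither, with 1 called red at 24 h and 3 at 48 h.

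Across hours, 10 of the 19 member probe sets differed between replicate 3 and replicates 1 and 2, 7 of them higher in replicate 3 and 3 lower, against the 12.0% and 12.4% of all probe sets given above. The largest of these was Dusp6, at 0.89 ± 0.11 on the log2 scale (limma adjusted p = 1.32e-05). Etv5 was higher in replicate 3 by 0.68 (1428142_at) and 0.55 (1450082_s_at), but 1420998_at, at 0.21, was not called (adjusted p = 0.12). Spred1 was higher by 0.49 (1423160_at), 0.52 (1428777_at) and 0.35 (1423161_s_at), and Spred2 by 0.30 (1434403_at). Lower in replicate 3 were Spred2 1441415_at (-0.48, limma adjusted p = 0.0155), Spry2 (-0.38, 0.0133) and Dusp4 (-0.34, 0.0264). Spry1 (-0.14, adjusted p = 0.444) and both tested Spry4 probe sets were not called.

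The cell division genes that were also brighter in replicate 3 are given above, and their part in these member differences was not tested. Of the 19 members, 5 had no overlap between 48 h and 0 h and were higher (Spry1, Spred1 1423161_s_at, Spred2 1441415_at, Etv5 1420998_at and Etv5 1450082_s_at), against 10.4% of all tested probe sets. Setting each replicate's 48 h array against its own 0 h array, 12 of the 19 members were higher in 3 of 3 (Spry1, Dusp6, the 3 tested probe sets of Spred2, the 3 of Etv5 and 4 of Spred1), against 19.7% of all tested probe sets. No label says that same-numbered replicates belong together.

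**Figure D4:**
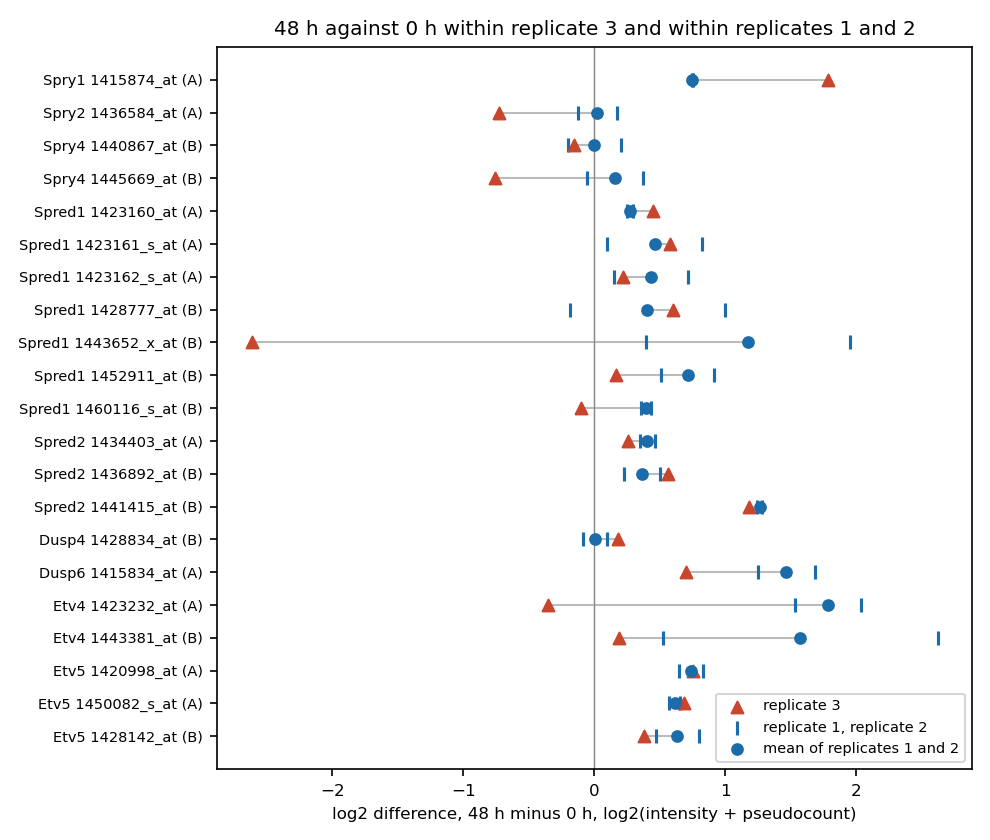
Log2 difference at 48 h minus 0 h (horizontal axis) for the tested member probe sets and the 2 of Etv4 in rows, with replicate 3 as a triangle, replicates 1 and 2 as ticks and their mean as a circle. Spred2 1441415_at (1.18 and 1.26) and Etv5 1420998_at (0.75 and 0.74) have like values in replicate 3 and in replicates 1 and 2, whereas Spry1 (1.78 and 0.75), Dusp6 (0.70 and 1.47) and Etv4 1423232_at (-0.35 and 1.78) do not.

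The rest of the pathway was described with 1 probe set per gene, over 5 lists of other genes. Of 12446 tested genes, 1.29% were called higher and 0.747% lower at 48 h (limma over all arrays), and 4.08% and 4.82% with the batch term. Among 26 genes listed as growth factor ligands, 15 were tested and 0 were called at any hour over all arrays (limma). An unadjusted F test p under 0.05 was reached by 3 of the 15, against 13.4% of all tested probe sets. The list's median 48 h difference was 0.46, with 10 of 15 above 0, against 50.4% of all tested probe sets. The fit with the batch term called 4 higher at 48 h and 0 lower (Fgf13, Fgf7, Kitl and Fgf6). Fgf13 is listed by its family name and is best known as an intracellular protein, not as a secreted ligand. Fgf6, a fibroblast growth factor made by muscle cells, averaged 321 ± 193 at 48 h and 95.1 ± 29.6 at 0 h (SD, n = 3 each), with a difference of 1.31 ± 0.37 (limma adjusted p = 0.097, 0.0155 with the batch term). Fgf9, another fibroblast growth factor, averaged 589 ± 113 at 48 h and 226 ± 80.3 at 0 h, with a difference of 1.22 ± 0.39 that was called in neither fit (limma adjusted p = 0.156, 0.067 with the batch term). Igf1, which signals through its own receptor kinase, averaged 341 ± 45.1 at 24 h and 149 ± 58.8 at 0 h (difference 1.10, limma adjusted p = 0.118, 0.00434 with the batch term), and its 48 h difference was -0.13. Hbegf, an EGF receptor ligand, averaged 1487 ± 115 at 48 h and 1103 ± 337 at 0 h (difference 0.46, limma adjusted p = 0.542). Pdgfc, a platelet-derived growth factor, had a 48 h difference of -0.44 (limma adjusted p = 0.575).

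Among 26 receptors and adaptors, 21 were tested. An unadjusted limma F test p under 0.05 was reached by 4 of the 21, against 13.4% of all tested probe sets. At 48 h 1 was called higher and 0 lower, with a median of 0.04. That gene was Erbb3, a neuregulin receptor that signals with Erbb2. It averaged 699 ± 156 at 0 h, 939 ± 125 at 4 h, 1436 ± 116 at 12 h, 2048 ± 427 at 24 h and 1522 ± 431 at 48 h (SD, n = 3 each). Its difference from 0 h was 1.51 at 24 h (limma adjusted p = 0.0042) and 1.07 ± 0.23 at 48 h (0.0261). The batch term fit called 3 receptors higher at 48 h, Erbb3, Erbb2 (0.55, adjusted p = 0.0268) and Igf1r (0.46, 0.0372). Sdc4, a heparan sulfate co-receptor for fibroblast growth factors, averaged 903 ± 150.5 at 24 h and 1415 ± 154 at 0 h, a difference of -0.64 (limma adjusted p = 0.093, 0.00831 with the batch term), and Met, the receptor of hepatocyte growth factor, had a 24 h difference of -0.67 (adjusted p = 0.212). Cbl, a ubiquitin ligase that removes activated receptors, had a 48 h difference of -0.02 (limma adjusted p = 0.977).

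In the chain between Ras and ERK, 14 of 21 genes were tested. An unadjusted limma F test p under 0.05 was reached by 6 of the 14, against 13.4% of all tested probe sets. At 48 h 1 was called lower and 0 higher, and the median was 0.07. The gene was Rras, a Ras relative, which averaged 1239.5 ± 181 at 48 h and 2009.8 ± 296 at 0 h (SD, n = 3 each), a difference of -0.68 ± 0.15 (limma adjusted p = 0.0279). Mknk2, a kinase that acts downstream of ERK, was also called lower once the batch term was added (-0.52, adjusted p = 0.0122). The ERK kinase Map2k1 had a 48 h difference of 0.04 (limma adjusted p = 0.928), and Braf one of 0.46 (0.267). At 24 h the difference of Map2k1 was 0.31 (limma adjusted p = 0.248, 0.0768 with the batch term). The batch term fit called 1 gene of this list higher at 24 h, Map2k2 (0.50, limma adjusted p = 0.0277), and 1 lower. Of all tested genes it called 5.3% higher and 6% lower at that hour.

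Among 22 other inhibitors of the pathway, 20 were tested. An unadjusted limma F test p under 0.05 was reached by 4 of the 20, against 13.4% of all tested probe sets. At 48 h 1 was called higher and 0 lower, with a median of 0.14. Rasa1, a GTPase-activating protein that switches Ras off, averaged 1740.4 ± 476 at 48 h and 766 ± 79.3 at 0 h (SD, n = 3 each), a difference of 1.12 ± 0.22 (limma adjusted p = 0.0182). Dusp14, a small phosphatase, passed the F test over all hours (limma adjusted p = 0.0308), with 1145 ± 166 at 48 h and 749.9 ± 87.3 at 0 h, but its 48 h difference of 0.59 was not called over all arrays (adjusted p = 0.145, 0.0343 with the batch term). Dusp1, an early induced phosphatase, went the other way, at 1790.5 ± 392 at 48 h and 2933 ± 717 at 0 h (difference -0.69, limma adjusted p = 0.152, 0.047 with the batch term). Rasal2 had a 48 h difference of 0.28 (adjusted p = 0.355). In the fit with the batch term the list had 2 genes higher and 1 lower at 48 h.

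Of 21 further genes grouped as outputs of ERK, 18 were tested and 0 were called in any comparison over all arrays (limma). An unadjusted F test p under 0.05 was reached by 2 of the 18, against 13.4% of all tested probe sets. The list is not limited to genes that ERK induces, so its medians and counts carry no direction of ERK activity. Its median was 0.09 at 48 h and -0.25 at 24 h. At 24 h, 2 of 18 were above 0, against 45.6% of all tested probe sets. At 48 h against 24 h, 15 of 18 were above 0 (54.6% of all), with a median of 0.33. In that step the batch term fit called 3 of the list higher and 0 lower, against 1.05% and 1.53% of all tested genes. Cyclin D1 (Ccnd1) averaged 2463 ± 963 at 24 h and 3631 ± 547 at 0 h (SD, n = 3 each), a difference of -0.61 (limma adjusted p = 0.23, 0.00464 with the batch term). Epha2, an ephrin receptor, averaged 891 ± 258 at 24 h and 1472 ± 133 at 0 h (difference -0.74, limma adjusted p = 0.122, 0.0299 with the batch term). Bcl2l11, a cell death protein, had a 48 h difference of 0.55 (limma adjusted p = 0.212, 0.0456 with the batch term), and the zinc finger factor Egr2 had one of -0.54 (0.406). In the fit with the batch term 3 of these genes were called lower and 0 higher at 24 h, against 6% lower and 5.3% higher of all tested genes, the third being the stress response gene Ier3, with 593 ± 344 at 24 h and 1119.7 ± 356 at 0 h (difference -0.97, limma adjusted p = 0.000875, 0.204 over all arrays). At 48 h 1 was called higher there (Bcl2l11) and 1 lower, the immediate early factor Fos, with 262 ± 57 at 48 h and 526 ± 148 at 0 h (difference -0.92, limma adjusted p = 0.0214, 0.402 over all arrays).

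**Figure D5:**
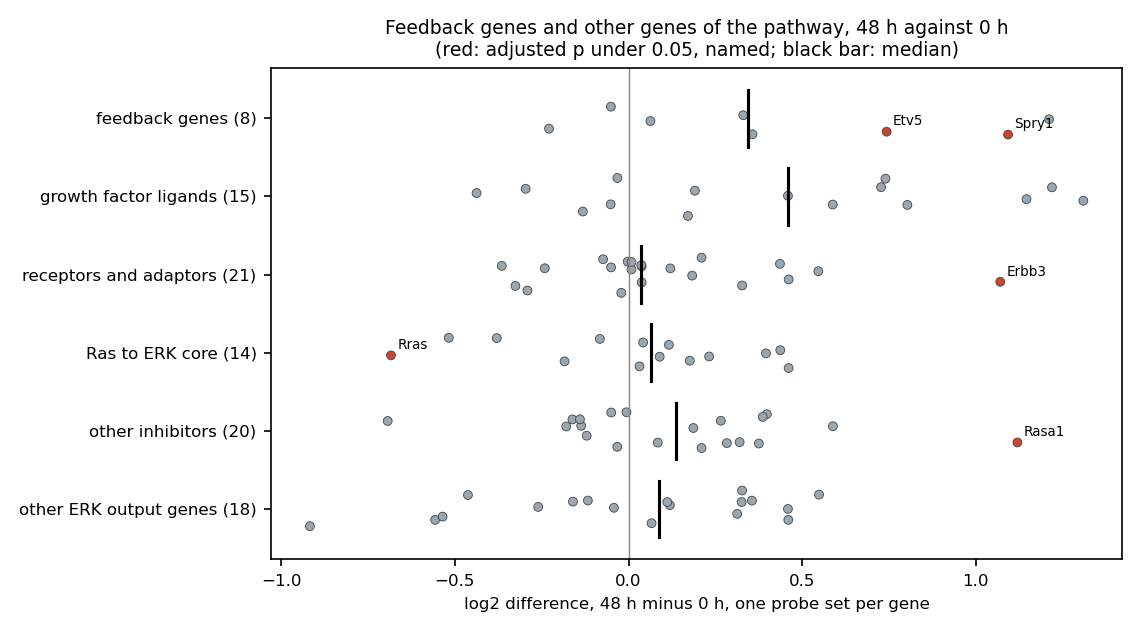
Log2 difference at 48 h minus 0 h (horizontal axis) for the feedback genes and 5 lists of other pathway genes in rows, 1 point per tested gene by its representative probe set, with black bars at list medians. Red points were called by limma over all arrays and carry names. The 8 feedback genes hold 2 called genes here (Spry1 and Etv5), while the called probe set of Spred2 is not its representative.

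The probe sets whose pattern was most like that of the members were ranked by Pearson's r over the 15 arrays of a chip, after each replicate number's mean had been removed. The arrays share hours and scaling, so r is a description. On A, Spry1 was most like P4ha1 (r = 0.95), Gys1 (0.94), Mkln1 (0.94), Rflnb (0.92) and Snapc3 (0.92), and least like Rnf130 (-0.97), Ift74 (-0.95), Prrx2 (-0.94), Smoc2 (-0.94) and Vegfc (-0.93). Among the members on A, r with Spry1 was 0.82 for Etv5 1420998_at, 0.73 for Dusp6 and -0.75 for Spry2. On B, Spred2 1441415_at was most like Ank2 (0.95), Rai14 (0.91), Rif1 (0.89), C130075A20Rik (0.89) and Zfp930 (0.87). It was least like B4galt5 (-0.93), Mfsd2a (-0.91), 5830411N06Rik (-0.91), D930020B18Rik (-0.89) and Bves (-0.89). The second tested B chip probe set of Spred2 had an r of 0.74 with it, and Dusp4 one of 0.14.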

How the data were processed

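RNA of leg muscle cell cultures (5 hours, 3 replicates each) was measured on 2 chips, A and B, and the titles gave each group. The authors deposited intensities on a linear scale, with a separate column for every array. The labels name only the manufacturer's standard protocol. The software and the genome build were not given in the sources used here. All arrays shared 1 level of the 2%-trimmed mean (500.1 to 500.2), so they were used without further scaling, and changes in the amount of RNA per cell cannot be seen. The 64 control probe sets of each chip were left out.

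Intensities were transformed to log2 with a pseudocount at the chip's 20th percentile (29 for A, 54 for B), and tests covered the upper 60% by mean log2 value, 27083 probe sets over both chips. Each chip was fitted over its 15 arrays with limma 3.58.1 (lmFit and eBayes with an intensity trend, R 4.3.3), with hour as the factor, and the fit was tested on simulated data. P-values are two-sided and adjusted by Benjamini-Hochberg over each chip. Probe sets were named through GEO's platform annotation, with symbols checked against RefSeq identifiers, of which 29 on A and 175 on B had no match.

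The members, the pathway and marker lists and the tests were chosen with earlier results of these data known. All member probe sets were described whatever their test. From each pathway list, up to 4 genes with the smallest F test p and up to 2 that moved against the list's majority were named, and a gene's representative was its brightest probe set, on A where one was tested there. Other genes of these lists that are named for a call with the batch term were chosen after their values were seen. Alternatives changed the scaling, the pseudocount, the brightness limit, the replicate terms, the arrays in the fit and the eBayes trend, and left out each array in turn. No genome coordinates other than RefSeq promoters (GRCm38.p6) are given.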

Additional observations from a re-analysis of the deposited data

How the results depend on the processing

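Counts below are member probe sets called by limma, out of 19 with the brightness limit and out of 27 without it, and the values over all arrays were 0 at 4, 12 h and in the 3 steps, 1 at 24 h, 3 at 48 h and 2 for the F test over hours. Leaving out 1 array in turn gave 0 to 3 at 48 h, 1 to 3 for the F test, 1 at 24 h and 0 elsewhere. No direction of a called value turned under any alternative run. With replicate 3 as a batch term the counts were 1 at 12 h, 2 at 24 h, 6 at 48 h, 1 at 48 h against 24 h and 6 for the F test. That fit called 0.690%, 8.59%, 7.53%, 2.58% and 10.3% of all 27083 tested probe sets, in the same order. In replicates 1 and 2 alone they were 1, 2 and 5 at 12, 24 and 48 h, 1 at 12 h against 4 h, 2 at 48 h against 24 h and 6 for the F test. The shares of all were then 2.41%, 10.1%, 9.35%, 0.779%, 4.24% and 12.7%. Without the brightness limit the counts were 1 at 48 h and 1 for the F test, and in the upper 40% 1 for the F test. With only the arrays of the hours compared, 0 were called at 48 h. Same-numbered arrays are not said to belong together, and their deviations from the hour means correlated at 0.044 to 0.73 on A and 0.0026 to 0.43 on B, so pairing was not established (11 of 15 arrays on A and 9 of 15 on B were most like one of their own number). The replicate number as a block gave 2 at 24 h, 5 at 48 h, 1 at 48 h against 24 h and 6 for the F test. It called 7.94%, 6.95%, 2.20% and 8.92% of all tested probe sets, in the same order. For fits without the brightness limit, in the upper 40% or with arrays left out, shares of all probe sets are not given here. Combinations chosen after seeing the data gave, without the limit and with the batch term, 5 at 48 h, 1 at 48 h against 24 h and 7 for the F test, 1 of them Etv4 1423232_at, and, without the limit in replicates 1 and 2 alone, 1, 2, 1, 2 and 6 at 12 h, at 24 h, at 12 h against 4 h, at 48 h against 24 h and for the F test. The cause of these shifts was not tested. Between replicate 3 and the others 10 were called, 10 also with quantile normalization or median centring, and 9 without the brightness limit. With 3 arrays per hour, precision is low, and dim signal limits the 8 untested probe sets most.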
